A study of Homo sapiens with 40 samples.

Results

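The mRNAs of 10 proteins that write or read N6-methyladenosine (m6A) were followed through all 12 groups of an RNA-Seq series in HEK293 cells, an established human embryonic kidney line. They were found by gene symbol among the 55765 symbols counted in each library, and the set was drawn up with earlier results of these data known. The 7 writer mRNAs are METTL3, METTL14, WTAP, KIAA1429 (current symbol VIRMA), ZC3H13, RBM15 and RBM15B, and the 3 reader mRNAs are YTHDF1, YTHDF2 and YTHDF3. All 10 were counted in every library and passed the filter on low counts in every fit. In the RNA immunoprecipitation experiment (RIP), antibodies against endogenous eIF4A1, eIF4A2 or DDX6 recovered RNA from native lysate, and the RNA of each IP was sequenced beside total RNA (n = 3 per group). For the sucrose gradients, cells were given control siRNA or CNOT1 siRNA. Libraries were made from input RNA, from fractions 1 to 5 (subpolysomal, pooled) and from fractions 6 to 11 (polysomal, pooled), with n = 4 per group. In the TNRC6 experiment, a control siRNA was compared with joint knockdown of TNRC6A and TNRC6B (n = 2 per group). IgG precipitates were not analysed here, so a higher level in an IP than in total RNA is given relative to total RNA only.

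m6A is the most common internal modification of mRNA. METTL3 is the catalytic subunit of the nuclear methyltransferase and METTL14 its RNA-binding partner. WTAP, KIAA1429, ZC3H13, RBM15 and RBM15B are regulatory subunits that place the complex in nuclear speckles and bring it to its target RNA. The YTHDF proteins bind m6A in the cytoplasm and recruit the deadenylase complex Ccr4-Not. CNOT1 is the scaffold of Ccr4-Not, and the TNRC6 (GW182) proteins link Argonaute to it. eIF4A1 and eIF4A2 are paralogous DEAD-box helicases of translation initiation, and DDX6 is a DEAD-box protein of mRNA repression that binds CNOT1. The series asks which mRNAs each helicase binds and how loss of CNOT1 changes their translation. The members are therefore described here as mRNAs, by their level in each IP and fraction, not as enzymes or readers.

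The study also asked whether helicase binding goes with polypurine sequence in the mRNA. The last 30 bases before the start codon are therefore shown for 7 members, as annotated by GENCODE 44 on GRCh37, with purine tetramers in capitals. The 8 tetramers searched on the mRNA strand, without overlap, were AAGA with AGAA, GAAA with GAAG, GAGA with AGAG, and GGAA with AAAA.
METTL3: ttcGAGAggtgtcagggctggGAGActagg
METTL14: ctcgggatagtGAAAagccggagttGGAAc
WTAP: ggcgcggcttctgcctgGAGAggattcaag
ZC3H13: cGAAGggagcttggggaGGAAtagtacaaa
RBM15B: tacgggccgcccgcccgccgcgccagcgcc
YTHDF1: cccggccccgcgtctagttgttcatGAAGc
YTHDF2: gccgtcgccgcccgtgaggatctGAGAgcc
METTL3, METTL14 and ZC3H13 held 2 tetramers each, WTAP, YTHDF1 and YTHDF2 held 1, and RBM15B held 0. Of 12362 genes with at least 30 bases of 5′UTR, 45% held 1 or more in this window and 15.4% held 2 or more. These windows lie at chr14:21979366-21979395 (METTL3), chr4:119606660-119606689 (METTL14), chr6:160148714-160157297 (WTAP), chr13:46619643-46626559 (ZC3H13), chr3:51428801-51428830 (RBM15B), chr20:61847245-61847274 (YTHDF1) and chr1:29063603-29063632 (YTHDF2). METTL3, ZC3H13 and YTHDF1 are on the minus strand and the other 4 on the plus strand, and the windows of WTAP and ZC3H13 span an intron. The annotated 5′UTRs of RBM15 (29 nt) and KIAA1429 (22 nt) are shorter than the window, and the window of YTHDF3 is not shown here.

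The coding sequence (CDS) of ZC3H13 set it apart from the other members. It held 7.29 purine tetramers per 100 nt, above 99.6% of the 13619 genes with an annotated coding transcript, whose median was 3 (quartiles 2.12 and 3.92). METTL14 (4.89) and WTAP (4.37) followed, KIAA1429 held 3.92, and the other 6 members held between 2.13 (RBM15B) and 2.73 (RBM15), all below the median. The 30 nt with the most tetramers in the CDS are shown for the member with the highest density and the one with the lowest.
ZC3H13: AGAAAGAGAAGAGAGAGAGAggGAGAGAGA
RBM15B: aagccctgGGAAGAGAggcGGAAacgGAGA
The ZC3H13 window (CDS positions 2253 to 2282, chr13:46549604-46549633, GRCh37, minus strand) consisted of purines only and held 7 tetramers. The RBM15B window (CDS positions 1762 to 1791, chr3:51430592-51430621, plus strand) held 4. In the 5′UTR the density was highest in RBM15 (10.3 per 100 nt, percentile 99.8, over 29 nt only), followed by METTL14 (4.9, percentile 95.3) and YTHDF3 (3.89, percentile 88.8), while ZC3H13 stood at 1.42 (percentile 42.8).

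Total counts ran from 15.4 to 46 M reads per library. In the gradient experiment CNOT1 mRNA was 630 to 713 CPM (counts scaled to a common library total) in control input and 36.9 to 41.5 after CNOT1 siRNA. The third polysomal libraries went against their labels. The library labelled control siRNA, replicate 3, held 28.4 CPM of CNOT1 while its group otherwise held 471 to 502, and the library labelled CNOT1 siRNA, replicate 3, held 633 while its group otherwise held 24.1 to 31.7. These 2 libraries were left out of the gradient fit, which used the other 22, and the calls are also given with all 24 libraries under their labels. TNRC6A fell from 178 and 189 CPM to 40.5 and 64.7, and TNRC6B from 67.6 and 73.1 to 17.7 and 26.3, in the libraries with TNRC6A/B siRNA. NEFM (197 to 6060 CPM) and NEFL (66.1 to 1386 CPM), neurofilament genes that HEK293 cells express, were present in all 40 libraries and INA was low (1.97 to 13). PAX2, a kidney gene chosen with NEFM, NEFL and INA as a marker of HEK293 cells, was near 0 (0.0981 to 1.57 CPM) and did not mark them. PTPRC, ALB and DES, which mark leukocytes, hepatocytes and muscle, were near 0 too (at most 2.1 CPM).

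Per length, the writers and readers covered a wide range in total RNA. On the scale of CPM per kb of the annotated transcript, WTAP stood highest in RIP total RNA (116 ± 5.03 CPM per kb, SD, n = 3). YTHDF2 (73.7 ± 8.97), METTL3 (53.8 ± 4.01) and YTHDF1 (39.5 ± 5.16) followed. RBM15 (22.9 ± 1.82) and YTHDF3 (22.6 ± 1.78) differed by less than their spread, as did KIAA1429 (18.4 ± 1.09) and ZC3H13 (18 ± 0.528). RBM15B (15.4 ± 1.97) and METTL14 (6.67 ± 0.568) were the lowest. The order was the same in control input RNA, from WTAP (133 ± 7.24 CPM per kb, n = 4) to METTL14 (7.25 ± 0.172). In the control libraries of the TNRC6 experiment (n = 2) it differed in that KIAA1429 (21 ± 0.585) stood above YTHDF3 (17.4 ± 4.63), within the spread of the latter. Of the catalytic pair, METTL3 was thus among the highest members on this scale and METTL14 the lowest. The counts are per gene, while the scale uses the length of 1 annotated transcript. That length was 1.98 kb for METTL3, 2.1 kb for WTAP and 6.64 kb for METTL14. All annotated exons of these genes together cover 5.86, 6.41 and 6.84 kb, so the order of the members depends on the length used.

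**Figure D1:**
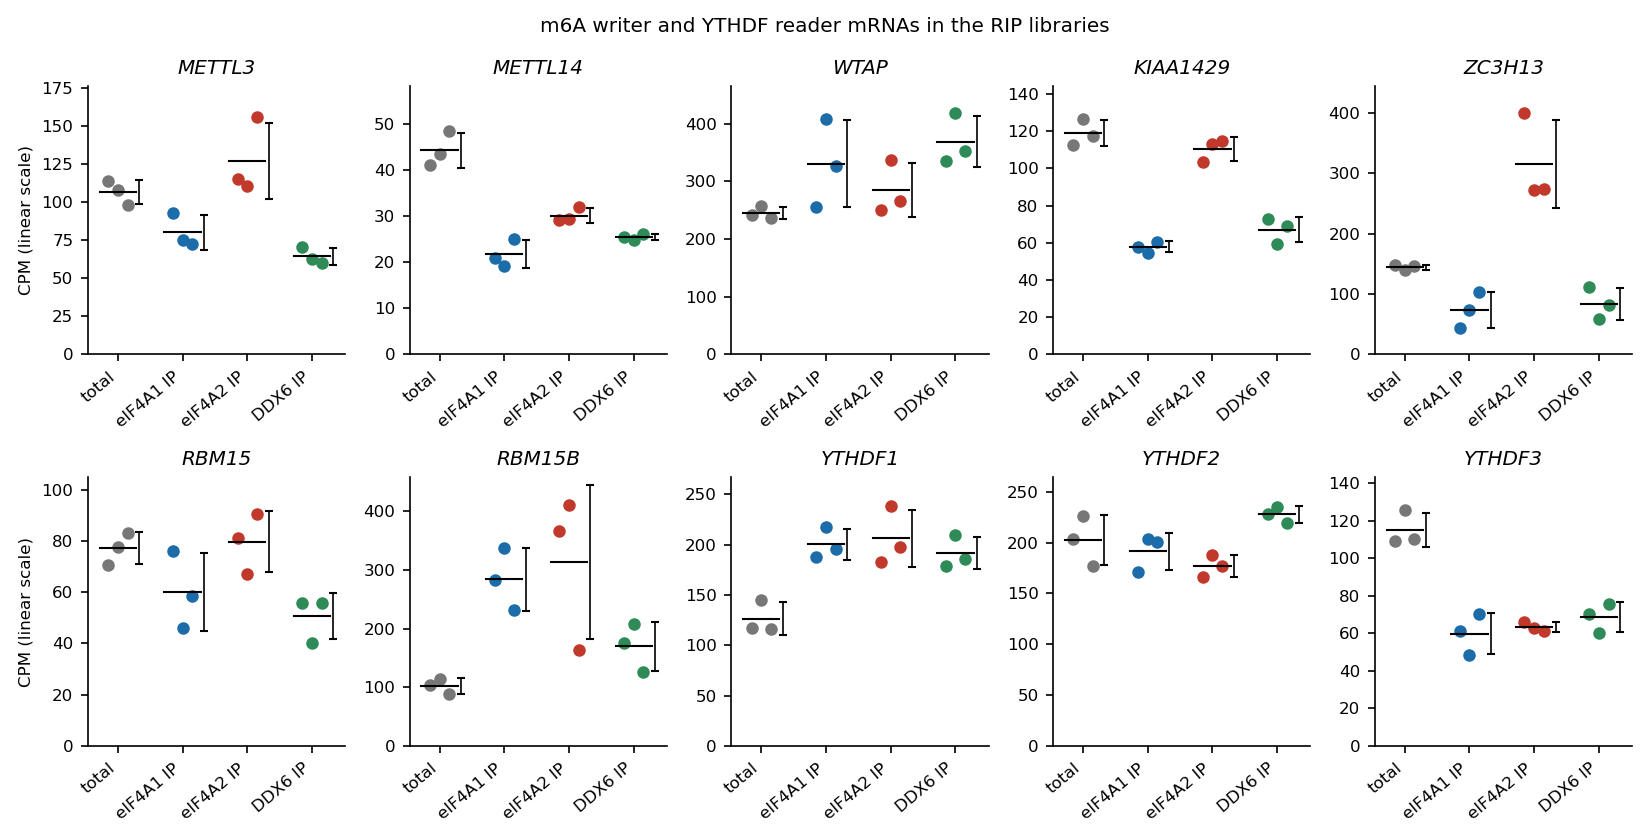
Level of each member (CPM, linear scale from 0) in the 3 libraries of total RNA and of each IP. Points are libraries in replicate order, horizontal lines are means and bars are SD (n = 3). ZC3H13 stands at 272 to 399.5 CPM in the eIF4A2 IP and at or below 147 CPM in every other RIP library.

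To see which members stood higher or lower with each helicase, the IPs were compared with total RNA. The 3 comparisons use the same total RNA libraries, so they are given side by side and not correlated. In the eIF4A1 IP 2 members were higher and 5 lower (7 of 10), where 52.6% of all 17474 genes were called, 26.1% higher and 26.5% lower. In the eIF4A2 IP 3 members were higher and 2 lower (5 of 10), where 50.3% of all genes were called, 24.5% higher and 25.8% lower. In the DDX6 IP 2 members were higher and 6 lower (8 of 10), where 46% of all genes were called, 22.7% higher and 23.3% lower. Calls are at an FDR below 0.05 over all genes in the quasi-likelihood test of edgeR. The members' median log2 fold change was -0.39, 0.13 and -0.67 in the 3 IPs, and the median over all genes was 0.04, 0.01 and 0.01. Nothing in the labels says that replicates came from separate cultures, so the p-values measure the spread between these libraries. In an IP, CPM is a share of the RNA recovered, and in bulk RNA fewer cells with a transcript and less of it per cell cannot be told apart. Where libraries are said not to overlap, here and below, how often this holds over all genes was not counted.

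ZC3H13, whose protein links the regulatory subunits and keeps them in the nucleus, was the only one of the 7 writers called higher in the eIF4A2 IP and lower in both other IPs. Its level was 147, 139.7 and 147 CPM in total RNA, 44.1, 73.9 and 103 in the eIF4A1 IP, 399.5, 272 and 274 in the eIF4A2 IP and 112, 58.6 and 81.6 in the DDX6 IP. The libraries of the eIF4A2 IP lay above, and those of the other IPs below, every total RNA library. The log2 fold change was 1.12 in the eIF4A2 IP (SE 0.28, FDR 0.00481), -0.97 in the eIF4A1 IP (SE 0.28, FDR 0.011) and -0.78 in the DDX6 IP (SE 0.28, FDR 0.0359; edgeR). The DDX6 call was lost without DDX6 IP replicate 2 or 3 or any 1 of the total RNA libraries, with log2 fold changes from -0.81 to -0.58. The antisense gene CPB2-AS1 overlaps ZC3H13 and was at no more than 1.77 CPM in any library.

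The catalytic pair was depleted in most IPs. METTL3 held 114, 108 and 97.9 CPM in total RNA. It held 92.9, 75 and 72.2 in the eIF4A1 IP, 115, 110.2 and 155 in the eIF4A2 IP and 70.7, 62.3 and 59.8 in the DDX6 IP. It was lower in the eIF4A1 IP (log2 -0.41, SE 0.16, FDR 0.0421) and in the DDX6 IP (-0.73, SE 0.16, FDR 0.00233), without overlap, and not called in the eIF4A2 IP (0.25, 95% interval -0.09 to 0.59). With single libraries left out, its log2 fold change in the eIF4A1 IP ran from -0.53 to -0.34. The call was lost in some of these runs. METTL14 fell in all 3 IPs. It held 41.1, 43.4 and 48.5 CPM in total RNA, 20.9, 19.2 and 25.2 in the eIF4A1 IP, 29.2, 29.3 and 32 in the eIF4A2 IP and 25.5, 24.7 and 26.2 in the DDX6 IP, and no IP library reached a total RNA library. The log2 fold changes were -1.03, -0.56 and -0.80 (FDR 3.18e-05, 0.00281 and 0.000312, edgeR).

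KIAA1429, the largest regulatory subunit and the scaffold of the writer complex, was recovered at its total RNA level with eIF4A2 but not with the other proteins. It held 113, 127 and 117 CPM in total RNA, 57.9, 54.8 and 60.7 in the eIF4A1 IP, 103, 113 and 115 in the eIF4A2 IP and 72.6, 59.5 and 69.2 in the DDX6 IP. It was lower in the eIF4A1 IP (log2 -1.04, SE 0.12, FDR 1.93e-05) and the DDX6 IP (-0.83, SE 0.12, FDR 0.000167). In the eIF4A2 IP its log2 fold change was -0.11 (95% interval -0.37 to 0.16), not called.

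WTAP, which anchors the catalytic pair in nuclear speckles, was higher in the DDX6 IP (336, 419 and 353 CPM against 242, 257 and 237, log2 0.59, SE 0.18, FDR 0.0158, edgeR). In the eIF4A1 IP it held 257, 409 and 328 CPM, with a log2 fold change of 0.43 that missed the threshold (FDR 0.0559) and passed it with replicate number as a block (0.41, FDR 0.00753). In the eIF4A2 IP it held 251, 338 and 265 CPM (log2 0.21, FDR 0.332). The eIF4A1 and eIF4A2 libraries of WTAP overlap those of total RNA in both cases. WTAP shares 8.71% of the 75-nt windows of its transcript with another annotated gene, and SOD2 lies opposite it. Their part in the counts of WTAP was not tested.

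RBM15 and RBM15B, paralogous RNA-binding adaptors that bring the complex to U-rich sites, went different ways. RBM15B held 104, 114 and 88.4 CPM in total RNA and rose to 283, 337 and 231 in the eIF4A1 IP (log2 1.47, SE 0.29, FDR 0.000979). In the eIF4A2 IP it held 366, 411 and 163 CPM (log2 1.62, SE 0.29, FDR 0.000516), where replicate 3 lay well below the other two. In the DDX6 IP it held 176, 208 and 125 CPM (log2 0.73, SE 0.29), above every total RNA library, with an FDR of 0.053 that became 0.00225 with the block. RBM15 was lower in the DDX6 IP (55.8, 40.2 and 55.9 CPM against 70.7, 77.8 and 83, log2 -0.61, SE 0.19, FDR 0.0203). It was not called in the eIF4A1 IP (76.1, 46 and 58.3 CPM, log2 -0.36, FDR 0.133, or -0.39, FDR 0.0262, with the block) or in the eIF4A2 IP (81.2, 67 and 90.7 CPM, log2 0.05). RBM15B lies opposite DCAF1 (counted as VPRBP), which shares 18.1% of the 75-nt windows of its transcript. VPRBP was lower in all 3 IPs (log2 -0.72, -0.35 and -0.40), and its part in the counts of RBM15B was not tested.

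The 3 YTHDF readers, close paralogs, each behaved differently. YTHDF1 was higher in every IP. It held 117, 145 and 116 CPM in total RNA and 188, 217 and 196, 183, 238 and 198, and 179, 209 and 186 in the eIF4A1, eIF4A2 and DDX6 IPs, with log2 fold changes of 0.67, 0.71 and 0.60 (SE 0.15 each, FDR 0.0019, 0.00125 and 0.00454, edgeR). YTHDF3 was lower in every IP. It held 109, 126 and 110.3 CPM in total RNA and between 48.2 and 75.6 CPM in the 9 IP libraries, with log2 fold changes of -0.94, -0.86 and -0.74 (FDR 0.000185, 0.000377 and 0.0014). YTHDF2, the reader best known for recruiting Ccr4-Not, was called in none of the 3 (log2 -0.08, -0.19 and 0.17, with 95% intervals from -0.48 to 0.46 in all). No 75-nt window of YTHDF1 or YTHDF3 occurred in another gene, while YTHDF2 shared 12.2% of its windows with YTHDF2P1 and an antisense transcript.

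The IPs were also set against each other, so that each difference between helicases had its own test. Each pair of these comparisons shares the libraries of 1 IP. Between the eIF4A2 and eIF4A1 IPs 2 members were higher and 0 lower, where 1.06% of all genes were called (0.973% higher and 0.0858% lower). Between the eIF4A2 and DDX6 IPs 5 members, all writers, were higher and 0 lower, where 21.1% of all genes were called (9.82% higher and 11.3% lower). Between the DDX6 and eIF4A1 IPs 0 members were called by edgeR, with 1 (RBM15B, log2 -0.74) at an unadjusted p below 0.05 and 0 by DESeq2, where 0.0916% of all genes were called (0.0801% higher and 0.0114% lower). With replicate number as a block RBM15B was called there (log2 -0.76, FDR 0.0159). The members' median log2 difference was 0.27, 0.45 and 0.17, and that of all genes -0.02, -0.01 and -0.01.

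**Figure D2:**
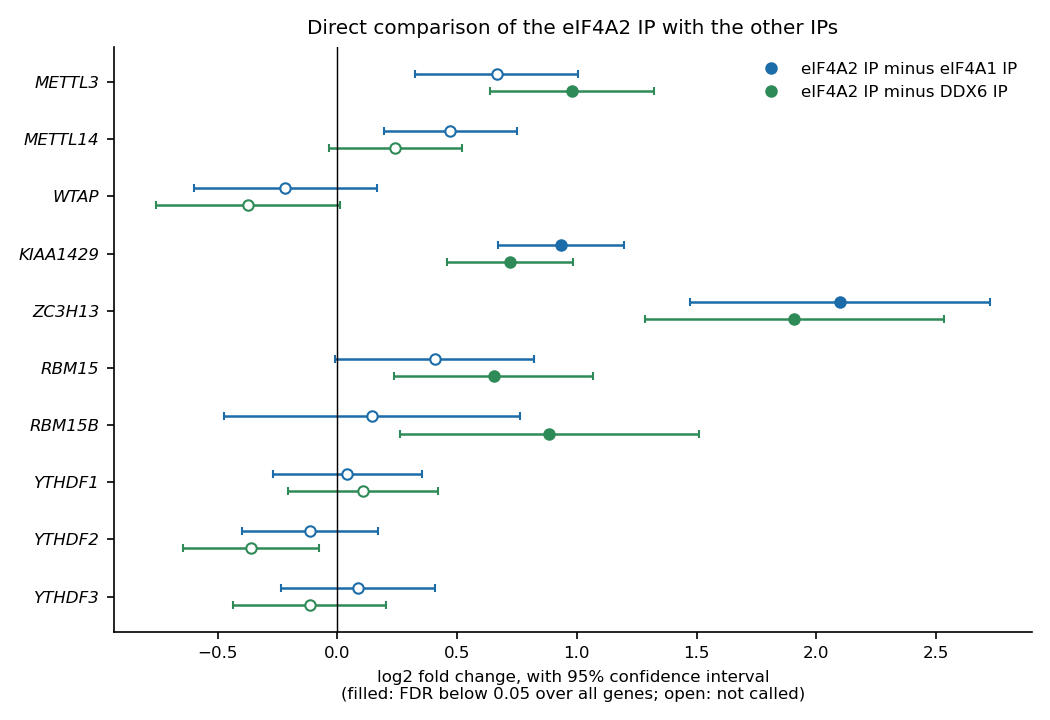
Log2 difference of each member between the eIF4A2 IP and the eIF4A1 IP (blue) or the DDX6 IP (green) with its 95% confidence interval, from the edgeR fit over 12 libraries. Filled points passed an FDR of 0.05 over all genes, and ZC3H13 has the largest difference in both comparisons (2.10 and 1.91).

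ZC3H13 had the largest difference of the 10 members. It was higher in the eIF4A2 IP than in the eIF4A1 IP by 2.10 on the log2 scale (SE 0.29, 95% interval 1.47 to 2.73, FDR 0.00492), rank 102 of 17474 genes, and than in the DDX6 IP by 1.91 (SE 0.29, interval 1.29 to 2.53, FDR 0.00225), rank 131. The libraries did not overlap. KIAA1429 was higher by 0.94 (SE 0.12, FDR 0.00427) and 0.72 (SE 0.12, FDR 0.00309). Its call against the eIF4A1 IP was lost when only the 6 libraries compared were fitted (FDR 0.0632). METTL3 was higher than in the DDX6 IP by 0.98 (SE 0.16, FDR 0.00258), and its difference of 0.67 from the eIF4A1 IP missed the threshold (FDR 0.0653) and passed it with the block (FDR 0.00914), by DESeq2 (FDR 0.00477) and without the filter on low counts (FDR 0.0142). METTL14 likewise differed from the eIF4A1 IP by 0.47 (FDR 0.105, and 0.00788 with the block).

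RBM15 (log2 0.65, SE 0.19, FDR 0.0307) and RBM15B (0.89, SE 0.29, FDR 0.0449) were higher in the eIF4A2 IP than in the DDX6 IP, RBM15 without overlap between libraries and RBM15B with it. WTAP and all 3 readers were not called in these comparisons. For YTHDF1 and YTHDF3 the log2 differences between IPs lay between -0.12 and 0.20, and the 95% intervals stayed within -0.44 and 0.52, so differences above this size are not covered by them. WTAP and YTHDF2 stood lower in the eIF4A2 IP than in the DDX6 IP by -0.38 and -0.36 (FDR 0.149 and 0.0668), and these passed with the block (-0.38, FDR 0.0195, and -0.36, FDR 0.0149). Without eIF4A2 IP replicate 1 or without DDX6 IP replicate 2, 3 of 10 members remained called higher than in the DDX6 IP, in place of 5. The share of all genes called in these runs is not given here.

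Set beside the CDS purine density, the differences ordered the members only in part. ZC3H13 had the highest density and the largest difference in both comparisons. METTL14 and WTAP came next in density (percentiles 91.8 and 84.2), with differences of 0.47 and -0.22 from the eIF4A1 IP, while METTL3, at percentile 39.5, differed by 0.67. With 10 genes this is a description.

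In control cells, 3 members were higher and 5 lower in polysomal than in subpolysomal RNA (8 of 10, where 72.1% of 17115 genes were called, 33.7% higher and 38.4% lower). The log2 fold changes ran from -1.55 to 0.53, with a members' median of -0.03 against -0.10 over all genes. A higher subpolysomal level means that more of the mRNA sits on few or no ribosomes relative to other mRNAs.

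RBM15B and RBM15 were the most subpolysomal members. RBM15B held 214, 283, 282 and 339 CPM in subpolysomal RNA and 104, 98.5 and 83.7 in polysomal RNA (log2 -1.55, SE 0.13, FDR 3.77e-10). RBM15 held 129.7, 115, 132 and 168 CPM and 55.4, 57.2 and 63.1 CPM (log2 -1.22, SE 0.13, FDR 1.59e-08). METTL3 followed with 149, 136, 116 and 129 CPM against 70.3, 75.4 and 68.1 (log2 -0.89, SE 0.11, FDR 1.31e-07). METTL14 (log2 -0.42, FDR 0.00482) and YTHDF1 (log2 -0.20, FDR 0.0223) were lower too. The polysomal and subpolysomal libraries of these members did not overlap. How often this holds over all genes was not counted.

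ZC3H13 was on the other side, with 65, 56.8, 44.3 and 46.6 CPM in subpolysomal and 75.8, 66.2 and 89.3 CPM in polysomal RNA (log2 0.53, SE 0.15, FDR 0.00299). YTHDF3 (log2 0.47, FDR 0.00038) and WTAP (log2 0.33, FDR 0.00845) were higher as well, while KIAA1429 (0.21, FDR 0.154) and YTHDF2 (0.15, FDR 0.18) were not called. With all 24 libraries, 8 members were again called, where 71.2% of all genes were. KIAA1429 then joined (0.47, FDR 0.0137) and YTHDF1 left (0.01, FDR 0.953).

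**Figure D3:**
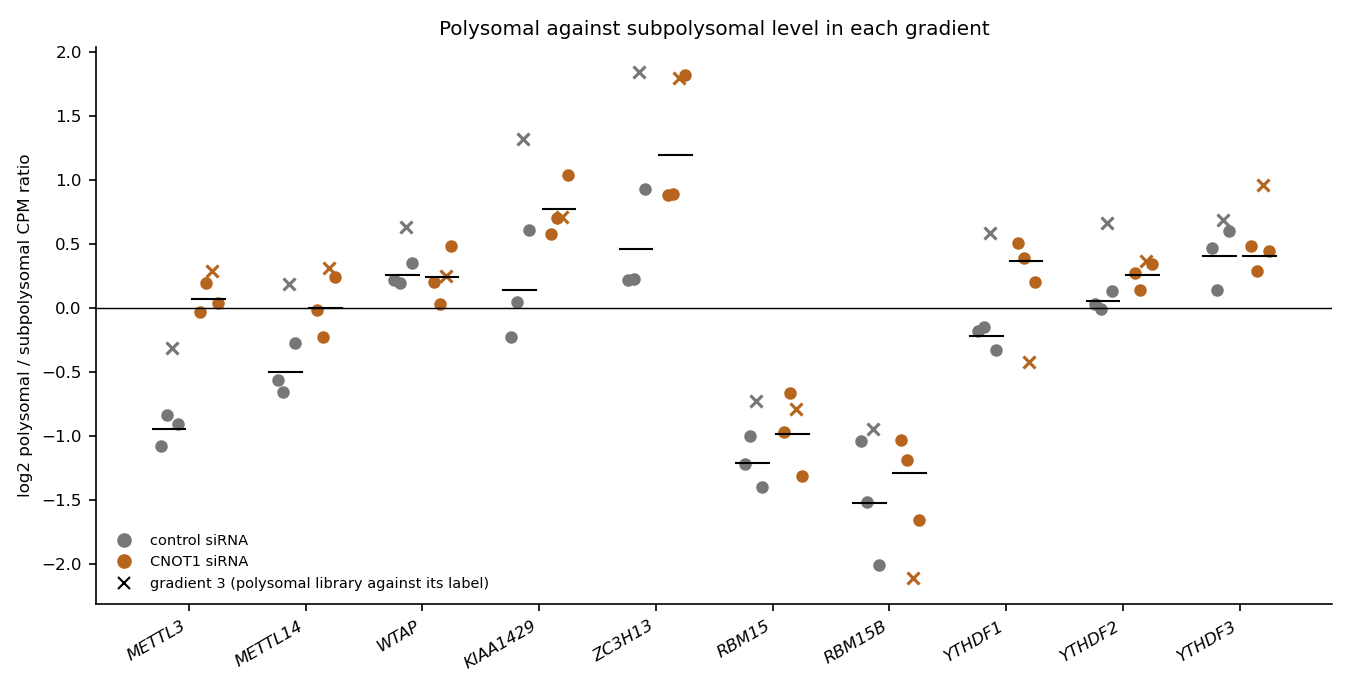
Log2 ratio of polysomal to subpolysomal CPM (pseudocount 0.5 CPM) of each member in each gradient with control siRNA (grey) or CNOT1 siRNA (brown). Lines are means without gradient 3, whose polysomal libraries (crosses) go against their labels. RBM15 and RBM15B stay below 0 in all 8 gradients, and METTL3 moves from -1.08 to -0.84 with control siRNA to -0.04 to 0.2 with CNOT1 siRNA outside gradient 3.

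To see how the loss of CNOT1 affected the members, CNOT1 siRNA was compared with control siRNA in each kind of RNA. In input RNA 3 members rose and 0 fell (3 of 10, where 40.6% of all genes were called, 19.6% higher and 21.1% lower). YTHDF1 rose from 127, 121, 118 and 123 CPM to 197, 197, 188 and 178 CPM (log2 0.64, SE 0.07, FDR 3.85e-07). RBM15B rose from 100.2, 104, 99 and 97.8 CPM to 164, 193, 163 and 166 CPM (log2 0.77, SE 0.12, FDR 2.15e-05). KIAA1429 rose from 159, 155, 140.1 and 156 CPM to between 181 and 223 CPM (log2 0.39, SE 0.12, FDR 0.0117). The groups did not overlap for these members, and how often this holds over all genes was not counted. YTHDF3 lay lower without overlap and was not called (log2 -0.17). Neither METTL3 (log2 0.07) nor METTL14 (0.06) was called, with 95% intervals within -0.18 and 0.29. With all 24 libraries in the fit, which called 28.4% of all genes, YTHDF1 (FDR 0.00799) and RBM15B (FDR 0.00719) were called and KIAA1429 was not (FDR 0.0748). VPRBP, opposite RBM15B, also rose (log2 0.50, FDR 0.000615, or 0.0405 with all 24 libraries), and its part in the counts of RBM15B was not tested.

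In subpolysomal RNA 2 members fell and 1 rose (3 of 10, where 42% of all genes were called, 24.3% lower and 17.7% higher). METTL3 fell from 149, 136, 116 and 129 CPM to 87.8, 86.3, 61.8 and 84.4 CPM (log2 -0.72, SE 0.10, FDR 5.39e-06), without overlap. TOX4, which lies opposite METTL3 and shares 10.5% of its 75-nt windows, was not called there (log2 0.23, FDR 0.0593). Its part in the counts of METTL3 was not tested. ZC3H13 fell from 65, 56.8, 44.3 and 46.6 CPM to 52, 44.7, 36.8 and 31.8 CPM (log2 -0.36, FDR 0.0437), with overlap. RBM15B rose to 329, 403, 360.1 and 455 CPM (log2 0.47, SE 0.12, FDR 0.00259), with overlap. With replicate number as a block METTL14 (-0.28, FDR 0.0215) and WTAP (0.24, FDR 0.019) were also called. With all 24 libraries, where 31.5% of all genes were called, METTL3 (FDR 9.92e-05) and RBM15B (FDR 0.0485) were called and ZC3H13 was not (FDR 0.178).

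**Figure D4:**
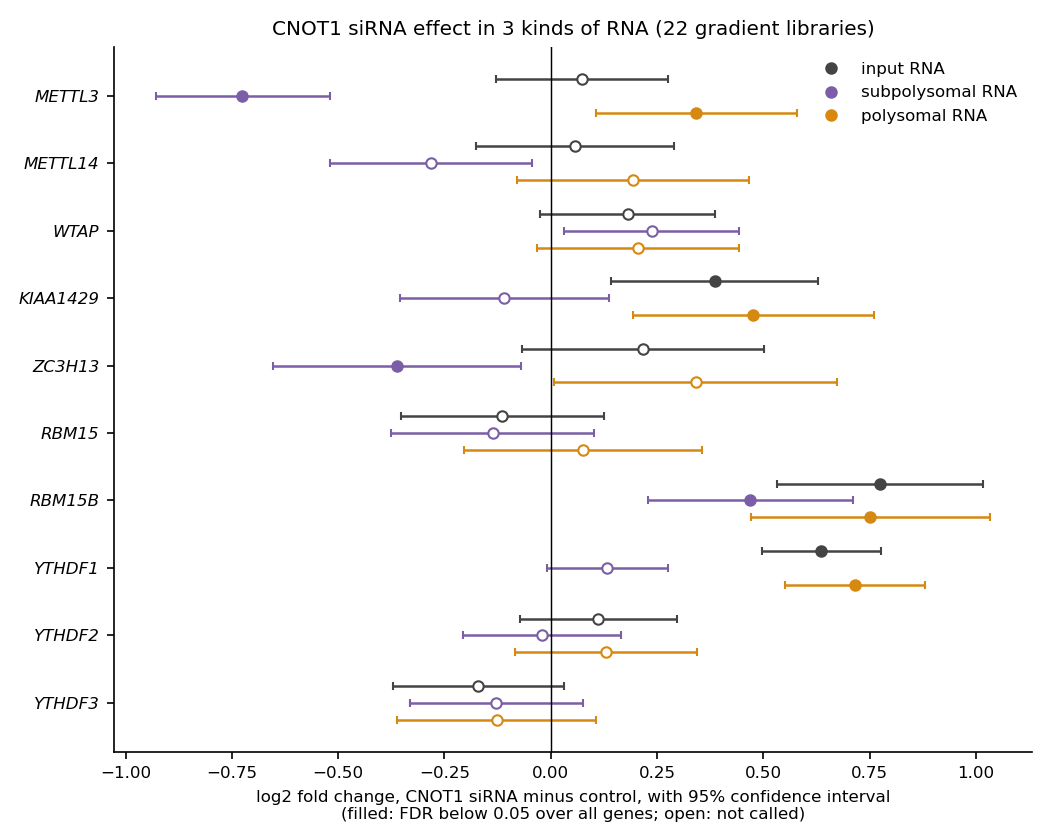
Log2 fold change of each member after CNOT1 siRNA with its 95% confidence interval in input (dark grey), subpolysomal (purple) and polysomal RNA (orange), from the edgeR fit over 22 gradient libraries. Filled points passed an FDR of 0.05 over all genes. METTL3 stands at 0.07, -0.72 and 0.34 in the 3 kinds of RNA.

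In polysomal RNA 4 members rose and 0 fell (4 of 10, where 31.7% of all genes were called, 17.1% higher and 14.6% lower). YTHDF1 rose from 138, 134 and 132 CPM to 232, 229.5 and 203 CPM (log2 0.72, SE 0.08, FDR 1.01e-06). RBM15B rose from 104, 98.5 and 83.7 CPM to 161, 176 and 144 CPM (log2 0.75, SE 0.14, FDR 0.000217). KIAA1429 (log2 0.48, FDR 0.0101) and METTL3 (70.3, 75.4 and 68.1 to 85.6, 98.8 and 86.6 CPM, log2 0.34, FDR 0.0252) rose without overlap between libraries. METTL14, WTAP and YTHDF2 also lay higher and YTHDF3 lower without overlap, though none of them was called. How often libraries separate over all genes was not counted. The 4 calls rest on leaving out the third pair, whose CNOT1 counts go against their labels (28.4 CPM with control siRNA, 633 with CNOT1 siRNA). The fit with all 24 libraries keeps these labels. With all 24 libraries 0 members and 0 genes were called, and the log2 fold changes of the 4 members were 0.34 (YTHDF1), 0.39 (RBM15B), 0.17 (KIAA1429) and 0.17 (METTL3). Of the 10 members, RBM15B and YTHDF1 then had an unadjusted edgeR p below 0.05 (0.0419 and 0.0402). METTL3 also missed the threshold by DESeq2 (log2 0.26, FDR 0.0937) and with RLE factors (0.27, FDR 0.0945). VPRBP rose in polysomal RNA too (log2 0.71), and with all 24 libraries it was not called (0.29, FDR 0.672). Over all genes, 2925 were higher and 2501 lower with TMM factors, and 2259 and 3073 with RLE factors, which moved the median by -0.077 on the log2 scale.

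The polysome shift was the log2 fold change after CNOT1 siRNA in polysomal RNA from which that in subpolysomal RNA was subtracted. It was higher for 4 members and lower for 0 (4 of 10, where 17.5% of all genes were called, 9.99% higher and 7.51% lower). METTL3 had the largest shift (log2 1.07, SE 0.15, 95% interval 0.75 to 1.38, FDR 6.98e-05), rank 532 of 17115 genes. ZC3H13 (0.70, SE 0.21, FDR 0.0255), KIAA1429 (0.59, SE 0.18, FDR 0.0277) and YTHDF1 (0.58, SE 0.10, FDR 0.000513) followed. The log2 polysomal to subpolysomal ratio of METTL3 was -1.08, -0.84 and -0.91 in control gradients 1, 2 and 4, and -0.04, 0.2 and 0.04 with CNOT1 siRNA. For YTHDF1 it was -0.18, -0.15 and -0.33, and 0.50, 0.39 and 0.20. The ratios of the 2 siRNAs overlapped for ZC3H13, at 0.22, 0.22 and 0.93 and at 0.89, 0.89 and 1.82, and for KIAA1429, at -0.23, 0.04 and 0.61 and at 0.58, 0.70 and 1.04.

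METTL14 shifted by 0.47 (FDR 0.0634), RBM15B by 0.28, RBM15 by 0.21, YTHDF2 by 0.15, YTHDF3 by 0.00 and WTAP by -0.03, none of them called. With all 24 libraries METTL3 alone was called (0.90, SE 0.17, FDR 0.00249), where 5.39% of all genes were, and ZC3H13, KIAA1429 and YTHDF1 stood at 0.47, 0.28 and 0.20. With RLE factors the direction of calls over all genes turned from 1709 higher and 1285 lower to 1187 and 1600, and 2 members, METTL3 and YTHDF1, were called.

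After TNRC6A/B siRNA 0 members were called by edgeR, where 0% of 14064 genes were, with 0 of 10 at an unadjusted p below 0.05 and 0 by DESeq2. The members' log2 fold changes lay between -0.20 (METTL3, 82 and 78.9 CPM to 66.3 and 74) and 0.22 (RBM15, 78.2 and 86.6 CPM to 95.6 and 95.8), with a median of -0.05. Their 95% intervals were wide, up to -1.13 to 0.98 for RBM15B (124 and 64 CPM with control siRNA, 108 and 70.8 with TNRC6A/B siRNA). The targets TNRC6A (log2 -1.80) and TNRC6B (-1.68) were not called in this edgeR fit either (unadjusted p 0.00182 and 0.00221). They were called by DESeq2 (FDR 0.0246 and 0.0329), by edgeR without the filter on low counts (FDR 2.41e-05 and 0.00635) and with the replicate block (FDR 1.06e-24 and 5.21e-19). The block called 0 members.

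The other m6A pathway genes were taken from a list of 23 that holds further methyltransferases, the demethylases FTO and ALKBH5, other readers and the enzymes that supply S-adenosylmethionine. The eIF4A1 IP held 4 of the 23 at a higher and 15 at a lower level than total RNA, the eIF4A2 IP 4 and 14, and the DDX6 IP 3 and 9. Over all genes 26.1% were called higher and 26.5% lower, 24.5% and 25.8%, and 22.7% and 23.3% in these IPs. The 23 genes had median log2 fold changes of -0.51, -0.52 and -0.37. Between the eIF4A2 and eIF4A1 IPs and between the DDX6 and eIF4A1 IPs 0 were called by edgeR, with 4 and 7 at an unadjusted p below 0.05. Between the eIF4A2 and DDX6 IPs 2 were higher and 4 lower, where 9.82% of all genes were higher and 11.3% lower. PRRC2A, an m6A reader, was higher by 2.28 (SE 0.41, FDR 0.00387), a difference larger than that of ZC3H13 there, and MAT2A, the catalytic subunit of S-adenosylmethionine synthetase, by 0.83. MAT2B, its regulatory subunit, was lower (-0.77), as were METTL5 (-0.65), which methylates ribosomal RNA, FTO (-0.68) and HRSP12 (-1.18), which bridges YTHDF2 and RNase P.

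In control gradients 14 of the 23 were more polysomal and 4 more subpolysomal (33.7% and 38.4% of all genes), with a median of 0.42 where that of all genes was -0.10. After CNOT1 siRNA 3 rose and 6 fell in input RNA (19.6% and 21.1% of all genes), and 5 rose and 6 fell in subpolysomal RNA (17.7% and 24.3%). In polysomal RNA 4 rose and 4 fell (17.1% and 14.6%). The polysome shift was higher for 5 and lower for 2 (9.99% and 7.51%). It was higher for YTHDC2 (0.78), MAT2A (0.60), FXR1 (0.55), ZCCHC4 (0.51) and RBMX (0.45) and lower for ALKBH5 (-0.79) and HRSP12 (-0.73).

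With all 24 libraries the numbers of the 23 called higher and lower were 15 and 4 between fractions, 3 and 5 in input RNA, 4 and 5 in subpolysomal RNA and 0 and 0 in polysomal RNA, where 0 of the 23 had an unadjusted edgeR p below 0.05. In the shift 3 were then higher, YTHDC2 (0.77), MAT2A (0.72) and RBMX (0.58), and 1 lower, ALKBH5 (-0.91). FXR1 (0.25), ZCCHC4 (0.37) and HRSP12 (-0.55) were not called. No gene of the list was called after TNRC6A/B siRNA by edgeR, with 0 at an unadjusted p below 0.05.

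Across the 12 group means of log2 CPM, each experiment centred on its control group, the genes closest to ZC3H13 among 13982 included YLPM1 (Pearson r = 0.962) and GTF3C4 (0.936), and those closest to YTHDF2 were LARP1B (0.931), UBAP2L (0.913) and EDC3 (0.893). Among the members KIAA1429 was the closest to ZC3H13 (0.851). By this centring the control groups hold the same value for every gene, so fewer than 12 means tell genes apart. The means share libraries through their control groups, and the values are descriptions.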

How the data were processed

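The authors sequenced strand-specific poly(A)-selected libraries, converted base calls with bcl2fastq 2.0, aligned reads to hg19 with TopHat2 and counted them with HTSeq. The deposited counts are whole numbers per gene symbol, not normalized, and the strand option and annotation are not given in the sources used here. A deposited table of the authors' edgeR tests of each IP against total RNA (log2 fold change and mean log2 CPM, a likelihood ratio score, a p-value and an FDR) was not used. Members and gene lists were chosen with earlier results of these data known. The genes named are the 10 members, the siRNA targets, and those of 23 other m6A genes called between IPs, in the polysome shift or after TNRC6A/B siRNA. VPRBP, TOX4 and CPB2-AS1 were added after their values were seen because they overlap members. SOD2, which overlaps WTAP, was analysed with them and its values are not given. PECAM1 was not analysed here. For ZC3H13 and YTHDF2 the 3 genes with the most similar group means were also named, except 1 that is not reported here.

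Counts of each experiment were fitted with edgeR 4.0.16 in R 4.3.3 (filterByExpr, TMM, quasi-likelihood F-test on group means, two-sided), over 12, 22 and 4 libraries and 17474, 17115 and 14064 genes. Positive values are higher in the group named first. CPM values are relative to the TMM-scaled total. A level behind a value rests on 15.4 to 46 M counts without molecular identifiers, so depth covers counting error only. Same-numbered libraries deviated together in all 18 RIP pairs (r 0.184 to 0.782), and in every pair between siRNAs within a fraction. Total RNA replicate 1 correlated as much with an IP of another number (eIF4A1 IP 0.262 against 0.274, DDX6 IP 0.226 against 0.229). The main fits hold no term for replicate number, so the calls ignore such a pairing, and the block is given as an alternative. The TNRC6 numbers (r 0.862) form 2 pairs only and are a hint. As alternatives the fits were repeated with DESeq2 1.42.0, with RLE factors, without the filter, with a replicate block, on the compared libraries alone, without each library in turn, and with all 24 gradient libraries. Sequences came from GENCODE 44 on GRCh37. Overlapping genes (TOX4, SOD2, CPB2-AS1, DCAF1) can take or share reads of METTL3, WTAP, ZC3H13 and RBM15B, whose values are uncertain to that extent.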

Additional observations from a re-analysis of the deposited data

Results flagged for a closer look

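The change in level after CNOT1 siRNA differed between polysomal and subpolysomal RNA by the interaction test for METTL3 (1.067 on the log2 scale), KIAA1429 (0.585), ZC3H13 (0.703) and YTHDF1 (0.583). This interaction was called for 17.5% of all genes. With all 24 libraries METTL3 alone of these members was called, where 5.39% of all genes were. Of 60 sets of 4 libraries, 4 held a library far from the other 3 by Dixon's criterion, and chance gives about 1 in 20. METTL3 was 61.8 CPM in the third subpolysomal library with CNOT1 siRNA, with 84.4 to 87.8 CPM in the others. RBM15B was 193 CPM in the second input library with CNOT1 siRNA, with 163 to 166 CPM in the others. The other 2 cases lie in the polysomal libraries that go against their labels. KIAA1429 was 112 CPM in the third library labelled CNOT1 siRNA (126 to 127 in the others), and YTHDF1 was 218 CPM in the third library labelled control siRNA (132 to 138 in the others).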

How the results depend on the processing

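Of 49 calls on members, 32 held under every alternative run, and 17 were lost under at least 1. Of 1470 alternative values, 1323 kept direction and side of the threshold, 37 passed it newly, 65 lost it and 45 turned direction. Among the 65 lost, 9 came from the fit with all 24 gradient libraries. That fit keeps 2 polysomal libraries under labels that their CNOT1 counts go against. The calls lost were not counted without it. The replicate block was used because same-numbered libraries deviate together in the IPs and between siRNAs within a fraction. Total RNA replicate 3 was numbered by its title, while its description gives replicate 2, and every block value of the IPs rests on that number. No share of all genes called stands beside the member counts with the block or without the filter, except after TNRC6A/B siRNA. None stands beside those on the compared libraries alone or without single libraries. These counts are not read as results about the members. The block raised the number of members called from 2 to 4 between the eIF4A2 and eIF4A1 IPs, from 0 to 1 between the DDX6 and eIF4A1 IPs and from 3 to 5 in subpolysomal RNA after CNOT1 siRNA. It also called WTAP and RBM15 in the eIF4A1 IP, RBM15B in the DDX6 IP, and WTAP and YTHDF2 between the eIF4A2 and DDX6 IPs, and changed no other call within these comparisons. In the polysome shift, the block added METTL14 (0.47, FDR 0.0259). Same-numbered subpolysomal and polysomal libraries did not all deviate together (r -0.47, 0.236 and -0.325 with control siRNA, -0.094, -0.056 and -0.248 with CNOT1 siRNA). The ratios per gradient take the same number as the same gradient. DESeq2 called 4 members between the eIF4A2 and eIF4A1 IPs, and no filter called 1 between the DDX6 and eIF4A1 IPs. Fitting only the compared libraries gave 1 member between the eIF4A2 and eIF4A1 IPs, 6 in input RNA and 2 in the polysome shift. RLE factors gave 2 in the shift. All 24 gradient libraries gave 0 in polysomal RNA and 1 in the shift. The cause was not tested. Over all genes, calls between the eIF4A2 and eIF4A1 IPs were 170 higher and 15 lower, against 541 and 159 by DESeq2, and between the DDX6 and eIF4A1 IPs 14 and 2, against 362 and 177. After TNRC6A/B siRNA 289 genes had an unadjusted p below 0.05, with 0 called by edgeR, 8 by DESeq2, 18 without the filter and 763 with the block.

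Leaving out 1 library at a time gave 5 to 8 members called in the DDX6 IP (5 without DDX6 IP replicate 2), 6 to 9 in the eIF4A1 IP, 3 to 4 between the eIF4A2 and DDX6 IPs, 2 to 4 in polysomal RNA after CNOT1 siRNA (2 without control replicate 1) and 2 to 5 in the shift (2 without subpolysomal control replicate 1 or polysomal control replicate 1 or 2). Single libraries ended the calls of METTL3 in the eIF4A1 IP (total replicate 1 or 2, IP replicate 2 or 3), WTAP in the DDX6 IP (IP replicate 2), RBM15 in the DDX6 IP (total replicate 3, IP replicate 2) and METTL3 in polysomal RNA (control replicate 1 or 4, CNOT1 siRNA replicate 2). They also ended those of ZC3H13 in subpolysomal RNA (control replicate 1 or 2, CNOT1 siRNA replicate 3 or 4), of KIAA1429 in polysomal RNA (control replicate 1), of YTHDF1 between fractions (subpolysomal replicate 4, polysomal replicate 2 or 4) and, in the shift, of ZC3H13 and KIAA1429. Between the eIF4A2 and DDX6 IPs the call of RBM15 ended without eIF4A2 IP replicate 1 or 3 or DDX6 IP replicate 2, and that of RBM15B without any 1 of the 6 libraries except eIF4A2 IP replicate 3.

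Direction turned for YTHDF1 between polysomal and subpolysomal RNA with all 24 libraries (0.011), for RBM15 in polysomal RNA by DESeq2 (-0.003) and RLE factors (-0.002), for YTHDF3 in the shift by DESeq2 (-0.08), RLE factors (-0.074) and the block (-0.004), and for RBM15B in the shift with all 24 libraries (-0.082). Of these, YTHDF1 alone had been called. Leaving out single libraries turned further values, none of them called. In the IPs against total RNA, YTHDF2 ran from -0.165 to 0.01 (eIF4A1) and RBM15 from -0.058 to 0.156 (eIF4A2). Between the eIF4A2 and eIF4A1 IPs, YTHDF1 ran from -0.073 to 0.122, YTHDF3 from -0.048 to 0.214 and RBM15B from -0.101 to 0.453. YTHDF1 ran from -0.009 to 0.187 between the eIF4A2 and DDX6 IPs, and ZC3H13 from -0.073 to 0.508 between the DDX6 and eIF4A1 IPs. After CNOT1 siRNA, KIAA1429 (-0.193 to 0.005) and YTHDF2 (-0.114 to 0.041) turned in subpolysomal RNA, RBM15 (-0.012 to 0.134) in polysomal RNA, and WTAP (-0.106 to 0.079) and YTHDF3 (-0.116 to 0.077) in the shift. After TNRC6A/B siRNA the ranges were METTL14 -0.091 to 0.298, WTAP -0.189 to 0.115, KIAA1429 -0.125 to 0.017, ZC3H13 -0.283 to 0.054, RBM15B -0.471 to 0.48, YTHDF1 -0.111 to 0.275, YTHDF2 -0.144 to 0.043 and YTHDF3 -0.069 to 0.48. There a group of 1 library was assumed to vary like the other group.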
